A study of Oryza sativa with 11 samples.

Results

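A set of 248 rice loci whose messenger RNA was high in wild-type (WT) anthers at stage 12 and low at stage 10 was followed in the ostie1-1 mutant. The set was chosen from the WT values alone. At each of the 248 loci the lowest of the 3 WT stage 12 libraries was at least 4 times the highest of the 3 WT stage 10 libraries, and all WT stage 12 libraries reached at least 5 FPKM. FPKM scales the fragments of a transcript to its length and to the size of the library. The table held 55986 loci, of which 21279 reached an FPKM of 1 in at least 2 of the 11 libraries and were tested. All 248 loci of the set were among those tested, through their WT stage 12 values.

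The study measured RNA of whole anthers of field-grown, untreated rice (Oryza sativa). Its groups were ostie1-1 at stage 12 (2 libraries), ostie1-1 at stage 10 (3), WT at stage 12 (3) and WT at stage 10 (3). The labels name the allele ostie1-1 and give neither its kind of mutation nor the cultivar, and they number biological replicates without saying whether these came from separate plants, so a p-value here covers the variation among these libraries and no more. The series' title gives OsTIE1 as a transcriptional repressor acting on jasmonate synthesis, anther opening and male fertility, and the mutant was set against WT at both stages of anther development. The files and the reference table at hand pair none of the rice locus IDs with gene names, so the loci are given by ID with no name or role, OsTIE1 itself was not checked in the libraries, and the anther label was not checked against marker genes.

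A rice anther holds developing pollen inside several wall layers. At stage 10 its microspores are vacuolated and the nutritive inner layer, the tapetum, is breaking down. By stage 12 the grains have divided, filled with starch and neared maturity, and plant pollen is known to build up a large store of late transcripts that serve germination and growth of the pollen tube. In whole anthers, fewer cells of a type and less RNA per cell cannot be told apart.

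One library stood apart before any result. WT stage 10 replicate 3 had log2 levels over the tested loci that were nearer to ostie1-1 at stage 10 (Pearson r of 0.88 to 0.90) than to its own group (0.79 and 0.80). The other WT stage 10 libraries had an r of 0.98. Without replicate 3 the same rule took 270 loci. All 248 were among them, as leaving out a library can only add loci to this rule. FPKM sums ran from 749507 to 845797 per library and read depth was not given, so no counting interval was computed.

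In WT the 248 loci were low at stage 10 and high at stage 12, as the rule requires. Their median level was 46.7, 29.1 and 65.5 FPKM in WT stage 12 replicates 1 to 3, against 1.85, 0.367 and 2.14 FPKM in WT stage 10 replicates 1 to 3. The ratio that chose them (lowest stage 12 over highest stage 10 value) had a median of 8.39 and a range of 4.02 to 150. Just inside the threshold lay LOC_Os12g36630 and LOC_Os10g17660, each at 4.02, and just outside it LOC_Os01g42110 and LOC_Os10g40170, each at 3.98. Levels at stage 12 spanned a wide range: by their WT stage 12 mean 58 loci stood under 20 FPKM, 99 at 20 to 100 FPKM and 91 at 100 FPKM or more.

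The ostie1-1 libraries, which did not enter the rule, showed the same course. The median level of the 248 loci was 141 and 48.4 FPKM in ostie1-1 stage 12 replicates 1 and 2, against 0.913, 2.13 and 11.4 FPKM in ostie1-1 stage 10 replicates 1 to 3. Both stage 12 libraries were above all 3 stage 10 libraries at 226 of the 248 loci (91.1%), against 24.4% of all loci tested. At 219 loci (88.3%), against 6.04% of all loci tested, both stage 12 libraries reached 4 times the level of stage 10 replicates 1 and 2. That count leaves out stage 10 replicate 3, the highest of its group at 231 loci. With all 3 stage 10 libraries, the 4-fold and 5 FPKM rule held at 144 loci (58.1%), against 2.46% of all loci tested. At stage 12, 240 of the loci reached 5 FPKM in both ostie1-1 libraries.

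**Figure D1:**
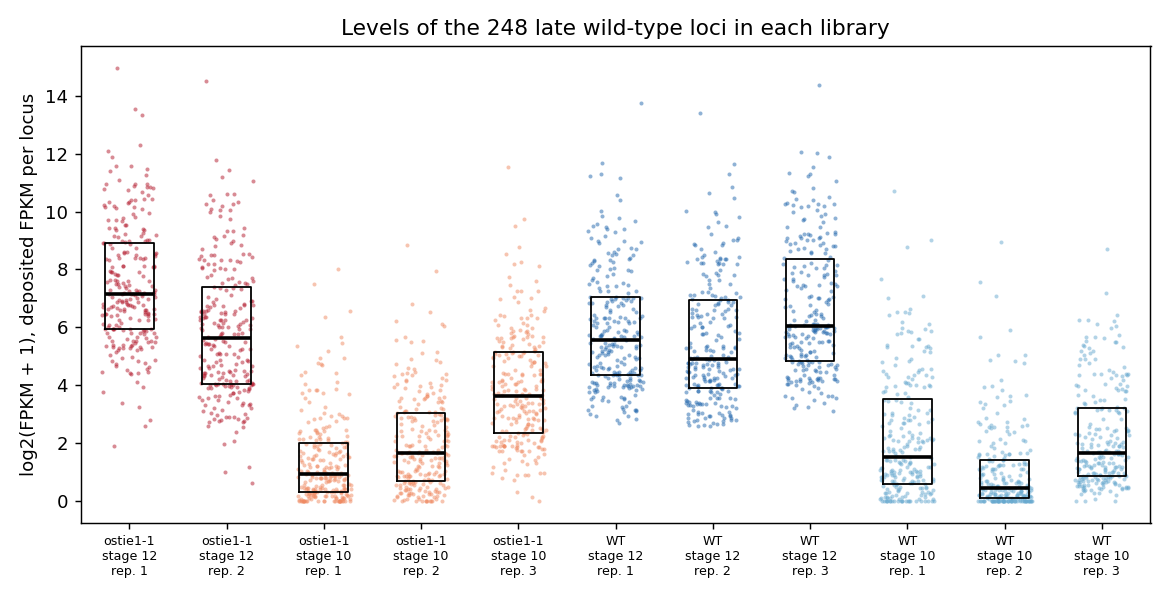
Levels of the 248 loci in each library, as log2(FPKM + 1) of the deposited FPKM. Each point is 1 locus, the box spans the quartiles and the thick line is the median. The stage 12 libraries of both genotypes lie high and the stage 10 libraries low, in WT as the rule requires. Ostie1-1 stage 10 replicate 3 (median 11.4 FPKM) lies above the other stage 10 libraries.

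A fit to the 5 ostie1-1 libraries alone tested the course in the mutant. Of the 248 loci, 183 (73.8%) were higher at stage 12 than at stage 10 (limma, Benjamini-Hochberg adjusted p below 0.05 over all 21279 loci), against 8.01% of all loci tested. None was lower (0 of 248 in limma, also 0 at an unadjusted p below 0.05), against 4.08% of all loci tested, and 65 did not pass. At an unadjusted p below 0.05, 235 were higher, but the share of all loci tested at that threshold was not computed. The fitted log2 fold change was above 0 at all 248 loci, against 48.1% of all loci tested, and at least 2 at 240 of them (96.8%), against 5.01%. It had a median of 4.18 (quartiles 3.46 and 5.07, range 1.27 to 7.20), against a median of -0.04 over all loci tested. These fold changes are on the log2(scaled FPKM + 1) scale, which understates the change of loci with low FPKM.

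The calls rest on few libraries. Without ostie1-1 stage 12 replicate 1, a single stage 12 library remained, whose spread was then assumed to equal that of stage 10, and no locus of the whole table passed. The log2 fold change was then above 0 at 246 of the 248 loci (median 3.56). Without ostie1-1 stage 12 replicate 2, again with a single stage 12 library, its median was 4.92. The count of loci called higher was 82 without ostie1-1 stage 10 replicate 2, where 1.62% of all loci tested were higher. With no filter on low values it was 31, beside 1.75% of the 39768 loci then tested, so calls fell over the whole table in each case.

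LOC_Os04g11130 had the largest rise in ostie1-1. It measured 2847 and 1568 FPKM in ostie1-1 at stage 12, against 2.05, 11.2 and 79.8 FPKM at stage 10 (log2 fold change 7.20, SE 1.15, limma adjusted p = 0.0140). Its WT values were 668, 412 and 1614 FPKM at stage 12, against 53.8, 0.364 and 65.1 FPKM at stage 10. The stages did not overlap in ostie1-1, nor in WT, where the rule required it. In ostie1-1 the stage 10 libraries lay further apart, as a ratio, than the stage 12 libraries. For this and the next named loci, lost calls are given leaving aside fits with a single stage 12 library. The call of LOC_Os04g11130 was lost with no filter on low values (limma adjusted p = 0.110) and without ostie1-1 stage 10 replicate 2 (0.0504).

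LOC_Os01g14940 had the next largest rise. Its levels were 738 and 313 FPKM in ostie1-1 stage 12, against 0.765, 1.37 and 16.3 FPKM in ostie1-1 stage 10 (log2 fold change 6.90, SE 0.92, limma adjusted p = 0.00906). In WT it stood at 115, 108 and 447 FPKM at stage 12, against 0.0761, 0.224 and 15.2 FPKM at stage 10. In both genotypes replicate 3 was the highest stage 10 library at this locus. The call of LOC_Os01g14940 was lost with no filter on low values (limma adjusted p = 0.0830).

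A single locus, LOC_Os06g21410, dominated the set by level. It measured 32112 and 23162 FPKM in ostie1-1 stage 12, against 256, 464 and 2959.5 FPKM in ostie1-1 stage 10 (log2 fold change 5.24, SE 1.01, limma adjusted p = 0.0220). In WT it measured 13735, 10903 and 21264 FPKM at stage 12, against 1663, 489.5 and 421 FPKM at stage 10. Both mutant stage 12 libraries were above all WT stage 12 libraries, by a small margin over the highest. The next most abundant locus, LOC_Os10g40090, reached 11787 and 3483 FPKM in ostie1-1 stage 12, against 179, 246 and 846 FPKM in ostie1-1 stage 10 (log2 fold change 4.23, SE 0.77, limma adjusted p = 0.0190). Its WT values were 3246, 2487 and 4207 FPKM at stage 12, against 519, 189.9 and 144 FPKM at stage 10. The genotypes overlapped at stage 12 at this locus. The call of LOC_Os06g21410 was lost with no filter (limma adjusted p = 0.167) and without ostie1-1 stage 10 replicate 1 (0.0628) or 2 (0.116). That of LOC_Os10g40090 was lost in the same settings (limma adjusted p = 0.121, 0.0529 and 0.0912 in that order).

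Summed, the set took a large share of the stage 12 libraries and a small one of the stage 10 libraries. The 248 loci held 19.1% and 8.72% of all FPKM in ostie1-1 stage 12 replicates 1 and 2, against 0.174%, 0.302% and 1.51% in ostie1-1 stage 10 replicates 1 to 3. In WT they held 7.19%, 6.07% and 12.7% at stage 12, against 0.725%, 0.188% and 0.336% at stage 10. The group means were 13.9% ± 7.34 in ostie1-1 stage 12 (SD, n = 2) and 0.662% ± 0.736 in ostie1-1 stage 10 (SD, n = 3), beside 8.65% ± 3.55 in WT stage 12 and 0.417% ± 0.277 in WT stage 10 (SD, n = 3 each). In ostie1-1 the lowest stage 12 share was above the highest stage 10 share. In WT the rule required this, as the FPKM sums of the libraries were similar. The ostie1-1 and WT shares overlapped at each stage. LOC_Os06g21410 alone held 3.80% and 2.75% of all FPKM in ostie1-1 stage 12, against 0.0311% to 0.368% in ostie1-1 stage 10. Without it the set still held 15.3% and 5.97% in ostie1-1 stage 12, against 5.43%, 4.66% and 10.0% in WT stage 12.

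**Figure D2:**
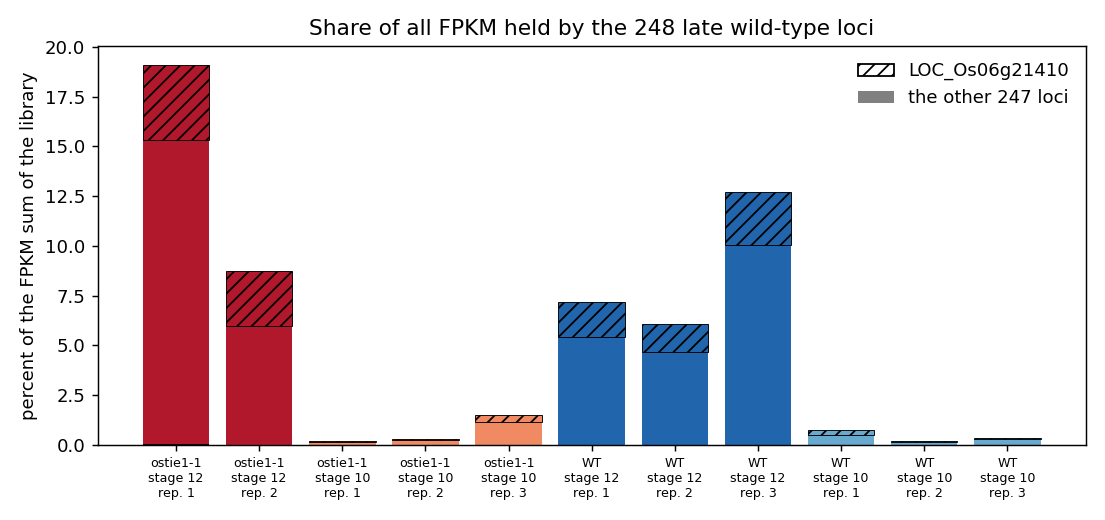
Percent of the FPKM sum of each library held by the 248 loci, with LOC_Os06g21410 hatched. The bars start at 0. Shares are 19.1% and 8.72% in ostie1-1 stage 12 and 6.07% to 12.7% in WT stage 12, and at most 1.51% in every stage 10 library.

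The fitted rise in ostie1-1 was larger at loci with a higher level in WT stage 12. A low level caps the difference on the log2(scaled FPKM + 1) scale, so this is in part built in. Of the loci at 100 FPKM or more in WT stage 12, 73 of 91 (80.2%) passed with a median log2 fold change of 5.37. Of those at 20 to 100 FPKM, 72 of 99 (72.7%) passed with a median of 4.02. Of those under 20 FPKM, 38 of 58 (65.5%) passed with a median of 3.40, where the added 1 FPKM weighs most.

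The same fold and level rule, applied to ostie1-1 in place of WT, took 523 loci. Of the 248 loci 144 (58.1%) passed it, against 2.46% of all loci tested, and these made up 27.5% of the ostie1-1 list. All 144 were also among the 183 that passed in limma. Of the 104 loci of the set that failed the rule in ostie1-1, 8 had a stage 12 library under 5 FPKM. In 99 of them the highest stage 10 library was ostie1-1 stage 10 replicate 3, and 69 passed the rule once that library was left out. Without ostie1-1 stage 12 replicate 2, 240 of the 248 passed.

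The stage difference of the 248 loci had a median of 4.18 on the log2 scale in ostie1-1, beside 3.76 in WT, where the rule fixed it in part. The difference was larger in ostie1-1 at 163 loci and smaller at 85, with a median gap of 0.38 (quartiles -0.23 and 0.99). Across the 248 loci the differences of the genotypes had a Spearman rho of 0.71, which describes these loci and has no p, since loci share libraries and the WT values chose them. The gap itself was not tested for the same reason.

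**Figure D3:**
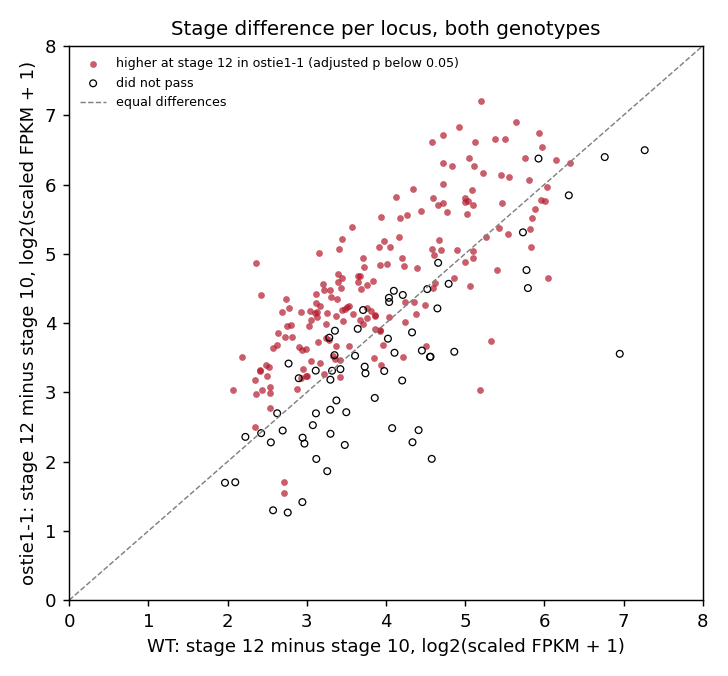
Stage 12 minus stage 10 difference of each of the 248 loci, in ostie1-1 (vertical) and WT (horizontal), both on the log2(scaled FPKM + 1) scale. Filled points passed in ostie1-1 and open ones did not, and the dashed line marks equal differences. All points lie above 0 in ostie1-1, and 163 lie above the line.

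The 65 loci that did not pass in ostie1-1 had a wider spread between libraries, which itself enters the test. Their median log2 fold change was 3.31, against 4.48 for the 183 that passed, and the median SE was 1.12 against 0.72. Ostie1-1 stage 12 replicate 1 exceeded replicate 2 by a median of 2.58 on the log2 scale at these 65 loci, against 1.08 at the 183. Their median level was 177 and 21.1 FPKM in stage 12 replicates 1 and 2, against 0.863, 5.80 and 29.5 FPKM in stage 10 replicates 1 to 3. The stages overlapped at 22 of them, and at each of these 22 stage 12 replicate 2 was at or below stage 10 replicate 3.

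LOC_Os08g38250, chosen after its values were seen, had the largest adjusted p of the set. It measured 177 and 6.17 FPKM in ostie1-1 stage 12, against 2.18, 7.23 and 34.6 FPKM in ostie1-1 stage 10 (log2 fold change 1.86, SE 1.40, limma adjusted p = 0.434). Its 2 stage 12 libraries lay on either side of the 2 highest stage 10 libraries.

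Within groups the loci moved together from library to library. Ostie1-1 stage 12 replicate 1 was above replicate 2 at 231 of the 248 loci (93.1%), against 57.8% of all loci tested, by a median of 1.50 on the log2 scale. Ostie1-1 stage 10 replicate 3 was the highest of its group at 231 loci (93.1%), against 46.5%, by a median of 2.18 over replicate 1 and 1.71 over replicate 2. WT stage 12 replicate 3 was the highest of its group at 211 loci (85.1%), against 22.9%, by a median of 1.11 over replicate 1 and 1.26 over replicate 2. In ostie1-1 stage 10 the full order of replicate 3 above 2 above 1 held at 179 loci (72.2%), against 37.1%. Ostie1-1 stage 12 replicate 1, ostie1-1 stage 10 replicate 3 and WT stage 12 replicate 3 were each the highest of their group at once at 188 loci (75.8%), against 8.64% of all loci tested. In WT stage 10 the highest library was replicate 3 at 122 loci (49.2%, against 32.5% of all loci tested), replicate 1 at 118 (47.6%, against 36.2%) and replicate 2 at 8. Over all loci tested the same median differences lay between -0.02 and 0.04, which the scaling of the libraries largely fixes. Replicates of a group carry no order, and whether these libraries differ in the exact stage of their anthers was not tested.

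At 4 loci, named after their values were seen, ostie1-1 ran against this common order at both stages. LOC_Os11g24420 measured 139.9 and 187.7 FPKM in ostie1-1 stage 12 replicates 1 and 2, against 19.6, 7.56 and 2.63 FPKM in stage 10 replicates 1 to 3 (log2 fold change 4.22, SE 0.76, limma adjusted p = 0.0188). LOC_Os04g01330 measured 39.0 and 68.0 FPKM, against 7.30, 2.40 and 3.36 FPKM. LOC_Os06g14379 (9.52 and 33.3 FPKM, against 3.37, 0.575 and 0.974 FPKM) and LOC_Os11g07620 (25.8 and 67.1 FPKM, against 4.14, 2.77 and 3.12 FPKM) did likewise. In all 4, stage 12 replicate 2 was the higher and stage 10 replicate 1 the highest, and all 4 passed as higher at stage 12. The call of LOC_Os06g14379 (limma adjusted p = 0.0408) was lost with a pseudocount of 0.1 (0.0512) or 5 (0.0526), with the replicate block (0.105) and without ostie1-1 stage 10 replicate 3 (0.0821). It was also lost with no filter on low values (0.180) and without ostie1-1 stage 10 replicate 2 (0.123). In these last settings LOC_Os11g24420 (limma adjusted p = 0.125 and 0.0645), LOC_Os04g01330 (0.0918 and 0.0540) and LOC_Os11g07620 (0.0815 and 0.0540) lost their calls. Fits with a single stage 12 library are left aside here.

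At stage 12 the 2 ostie1-1 libraries stood differently to WT. The WT values were selected to be high at this stage, so the comparison is a description without a test. Ostie1-1 stage 12 replicate 1 was above every WT stage 12 library at 206 loci (83.1%), against 28.8% of all loci tested, and below every one at 10 (4.03%), against 41.0%. Replicate 2 was above every WT stage 12 library at 62 of 248 loci, against 26.9% of all loci tested, and below every one at 78 (31.5%), against 48.5%. Its median of 48.4 FPKM lay within the range of the WT stage 12 medians, 29.1 to 65.5 FPKM, and the 141 FPKM of replicate 1 lay above it.

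Both mutant libraries together exceeded each WT library at 59 loci (23.8%), against 17.0% of all loci tested, and lay below each at 10 (4.03%), against 31.8%. With each library divided by its scaling factor, 85 loci (34.3%) were above, against 25.8%, and 7 (2.82%) below, against 20.4%. The 59 and the 7 were in both counts. The ratio of mean FPKM, ostie1-1 over WT, had a median of 1.83 (quartiles 1.25 and 2.70) and was above 1 at 210 loci, at least 2 at 104 and at most 0.5 at 13. Replicate 1 was the higher of the libraries behind this mean at 231 loci. The ratios use unscaled FPKM and have no share over all loci tested beside them. On the log2(scaled FPKM + 1) scale the ostie1-1 mean was above the WT mean at 219 loci. The share of all loci tested above WT on that scale was not computed. The median difference on it was 1.06 over the set, against 0.0525 over all loci tested, which the scaling of the libraries largely fixes. At 0 loci was the highest ostie1-1 stage 12 value below the lowest WT stage 12 value by 4 times or more. That count was 7 without ostie1-1 stage 12 replicate 1. With WT stage 12 replicate 1 left out of the rule and the count, it was 2 of 272 loci. With WT stage 12 replicate 2 so left out, it was 3 of 364.

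**Figure D4:**
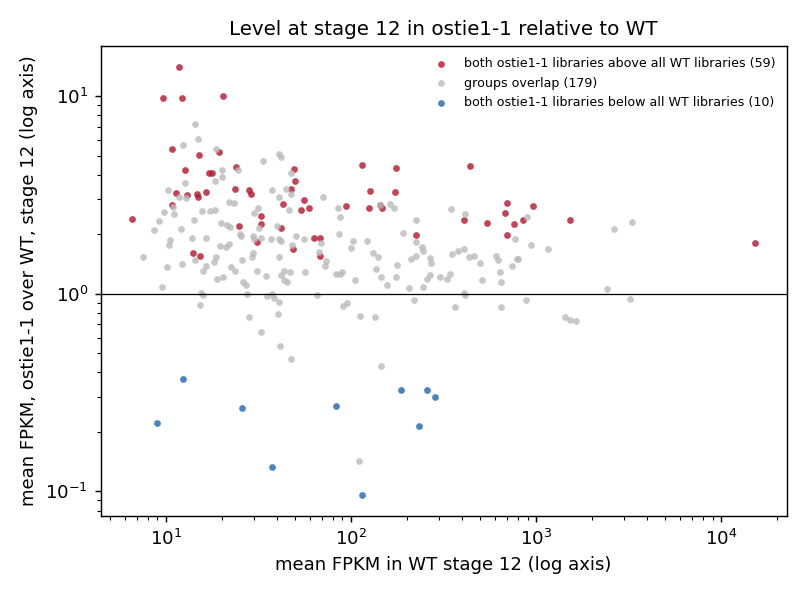
Ratio of mean FPKM at stage 12, ostie1-1 (2 libraries) over WT (3 libraries), against the WT stage 12 mean, both axes logarithmic. Each point is 1 of the 248 loci, colored by whether the libraries of the genotypes are apart. In 59 loci ostie1-1 lies apart above WT and in 10 apart below it.

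By the lowest ostie1-1 value over the highest WT value, the loci most raised over WT at stage 12 were low in WT. LOC_Os11g24420 had 139.9 and 187.7 FPKM in ostie1-1 stage 12, against 11.04, 8.75 and 15.4 FPKM in WT stage 12, and its lowest mutant value was 9.12 times the highest WT value. LOC_Os01g60360 had 109 and 80.2 FPKM in ostie1-1 stage 12, against 10.96, 7.45 and 10.7 FPKM in WT stage 12, a ratio of 7.32 on the same measure. Both also rose in ostie1-1 between the stages, LOC_Os01g60360 by a log2 fold change of 4.87 (SE 0.47, limma adjusted p = 0.00564) above its 1.19, 1.55 and 5.43 FPKM at stage 10.

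Among loci whose genotypes were apart, the 2 most lowered against WT at stage 12 by the lowest WT value over the highest ostie1-1 value (3.09 and 2.07) still rose in ostie1-1 between the stages. By the ratio of means other loci lay lower, LOC_Os03g01650 lowest. LOC_Os10g26000 had 2.73 and 1.24 FPKM in ostie1-1 stage 12, against 8.41, 9.54 and 8.89 FPKM in WT stage 12. In ostie1-1 stage 10 it was listed at 0 in replicates 1 and 2 and had 0.0970 FPKM in replicate 3 (log2 fold change 1.55, SE 0.26, limma adjusted p = 0.0156). The log2 fold change of this low locus was 4.06 with a pseudocount of 0.1 and 0.49 with one of 5. Its call was lost with the replicate block (limma adjusted p = 0.0564) and with no filter on low values (0.0671). It was also lost without ostie1-1 stage 10 replicate 2 (0.0771), fits with a single stage 12 library left aside. LOC_Os02g41961 had 87.6 and 79.8 FPKM in ostie1-1 stage 12, against 252, 181 and 339.6 FPKM in WT stage 12. Its ostie1-1 stage 10 values were 3.14, 5.90 and 9.11 FPKM (log2 fold change 3.68, SE 0.37, limma adjusted p = 0.00566). Of the 10 loci apart below WT at stage 12, 4 passed as higher at stage 12 than at stage 10 in ostie1-1, and of the 59 apart above WT 54 did. Over all loci tested 8.01% passed so. The ostie1-1 stage 12 values that sorted these loci also enter the fit, so the gap between these counts is in part built in.

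At stage 10 the loci were mostly low in both genotypes, and again the WT side was selected, here to be low. All 3 mutant libraries were above all WT libraries at 30 loci (12.1%), against 11.4% of all loci tested, and below all of them at 0, against 6.67%. With scaled FPKM the counts were 32 (12.9%), against 10.9%, and 0, against 8.36%. The share apart above WT was near that of all loci. Without WT stage 10 replicate 3 it was 62 of 248 loci, against 24.6% of all loci tested, and 2 loci (0.806%) were below, against 42.6%. Singly, ostie1-1 stage 10 replicate 3 was above every WT stage 10 library at 197 loci (79.4%), against 26.7% of all loci tested. Replicate 2 was so at 74 (29.8%), against 24.9%, and replicate 1 at 37 (14.9%), against 21.2%. At 0 loci did all 3 mutant libraries reach 4 times the highest WT stage 10 value. That count was 22 when ostie1-1 stage 10 replicate 1 was left out, and 25 of 270 loci when WT stage 10 replicate 3 was left out of the rule and the count.

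By the lowest ostie1-1 value over the highest WT value, the loci most raised over WT at stage 10 were LOC_Os01g51270 (3.30) and LOC_Os01g50950 (3.28). By the difference of mean log2 levels LOC_Os01g51270 also came first (3.00), while LOC_Os01g50950 (1.82) lay behind several others. LOC_Os01g51270 had 2.36, 6.14 and 32.9 FPKM in ostie1-1 stage 10, against 0.717 FPKM in WT stage 10 replicate 3 and 0 listed in replicates 1 and 2. At stage 12 it had 195 and 42.8 FPKM in ostie1-1, against 17.6, 8.92 and 10.2 FPKM in WT, and its rise between the stages in ostie1-1 did not pass (log2 fold change 3.31, SE 0.96, limma adjusted p = 0.0712). LOC_Os01g50950 had 2.55, 2.15 and 6.35 FPKM in ostie1-1 stage 10, against 0.253 and 0.657 FPKM in WT stage 10 replicates 1 and 3 and 0 listed in replicate 2. It rose in ostie1-1 to 85.6 and 66.9 FPKM at stage 12 (log2 fold change 4.15, SE 0.40, limma adjusted p = 0.00564), against 11.2, 9.14 and 25.1 FPKM in WT stage 12. Of the 30 loci apart above WT at stage 10, 11 were also apart above it at stage 12. As higher at stage 12 in ostie1-1, 12 of the 30 passed, against 8.01% of all loci tested. The 30 were picked for high ostie1-1 stage 10 values, which also enter the fit, so the choice itself lowers this count.

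The 248 loci lay on all 12 chromosomes, by the chromosome number in their IDs, and made up 0.534% (chromosome 7) to 1.58% (chromosome 4) of the tested loci of a chromosome. Each had a single transcript model in the table, against 94.1% of all loci tested. Many lay close together: 60 of the 248 (24.2%) had another locus of the set within 5 places in the ID order of their chromosome. Of the 21031 other tested loci, 4.14% had a locus of the set that near. The 60 formed 25 runs, 1 of 7 loci, 1 of 5, 2 of 3 and 21 of 2. In ostie1-1, 48 of the 60 passed as higher at stage 12, in 15 runs every locus passed, and in 2 none did. How reads shared by near-identical neighbours were counted is not stated, so values within a run may not be independent.

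The run of 7 on chromosome 6, from LOC_Os06g45150 to LOC_Os06g45230, was named after its values were seen. Its loci had group means of 85.9 to 411 FPKM in ostie1-1 stage 12, against 2.94 to 13.9 FPKM in ostie1-1 stage 10. In WT the means were 95.3 to 406 FPKM at stage 12, against 0.702 to 13.9 FPKM at stage 10. LOC_Os06g45190, for example, had 467 and 165 FPKM in ostie1-1 stage 12, against 0, 0.803 and 14.6 FPKM in ostie1-1 stage 10 (log2 fold change 6.62, SE 1.11, limma adjusted p = 0.0153). Of the 7 loci, 6 passed, and LOC_Os06g45180 had a log2 fold change of 5.31 (SE 1.38, limma adjusted p = 0.0527). That locus passed with a pseudocount of 5 (0.0403) and a filter on the ostie1-1 libraries (0.0499). It passed with all 11 libraries in the fit (0.0228) or all but WT stage 10 replicate 3 (0.0144). The WT values that chose the locus enter the variance of both these fits, so they lend it no support. LOC_Os06g45180 also passed without ostie1-1 stage 10 replicate 3 (0.00297) and with the replicate block (0.00166), which gives that library no weight. Fits with a single stage 12 library aside, LOC_Os06g45190 lost its call with no filter (limma adjusted p = 0.116) and without ostie1-1 stage 10 replicate 2 (0.0540).

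A run of 3 on chromosome 3, also named after its values were seen, held loci above and below their WT means at stage 12. LOC_Os03g01640 had 976 and 137 FPKM in ostie1-1 stage 12, against 283, 249 and 520.0 FPKM in WT stage 12. LOC_Os03g01650 had 5.94 and 16.0 FPKM in ostie1-1 stage 12, against 78.7, 18.2 and 245 FPKM in WT stage 12. LOC_Os03g01610 had 23.6 and 7.90 FPKM in ostie1-1 stage 12, against 78.3, 19.5 and 233 FPKM in WT stage 12. The mean in ostie1-1 was 1.59 times that in WT at LOC_Os03g01640, 0.0960 times at LOC_Os03g01650 and 0.143 times at LOC_Os03g01610. The genotypes were apart only at LOC_Os03g01650 among these 3. All 3 passed as higher at stage 12 in ostie1-1, with log2 fold changes of 6.31 (SE 1.58, limma adjusted p = 0.0472), 3.03 (SE 0.57, limma adjusted p = 0.0203) and 3.74 (SE 0.47, limma adjusted p = 0.00823) in that order. The losses that follow leave aside fits with a single stage 12 library. The call of LOC_Os03g01640 was lost with TPM (limma adjusted p = 0.0510), quantile normalization (0.0557) and a pseudocount of 0.1 (0.0673). It was also lost with no filter on low values (0.223) and without ostie1-1 stage 10 replicate 1 (0.103) or 2 (0.123). That of LOC_Os03g01650 was lost with all 11 libraries in the fit (0.0748), with no filter (0.124) and without ostie1-1 stage 10 replicate 1 (0.0560) or 2 (0.0787). LOC_Os03g01610 lost its call with no filter (0.0661).

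**Figure D5:**
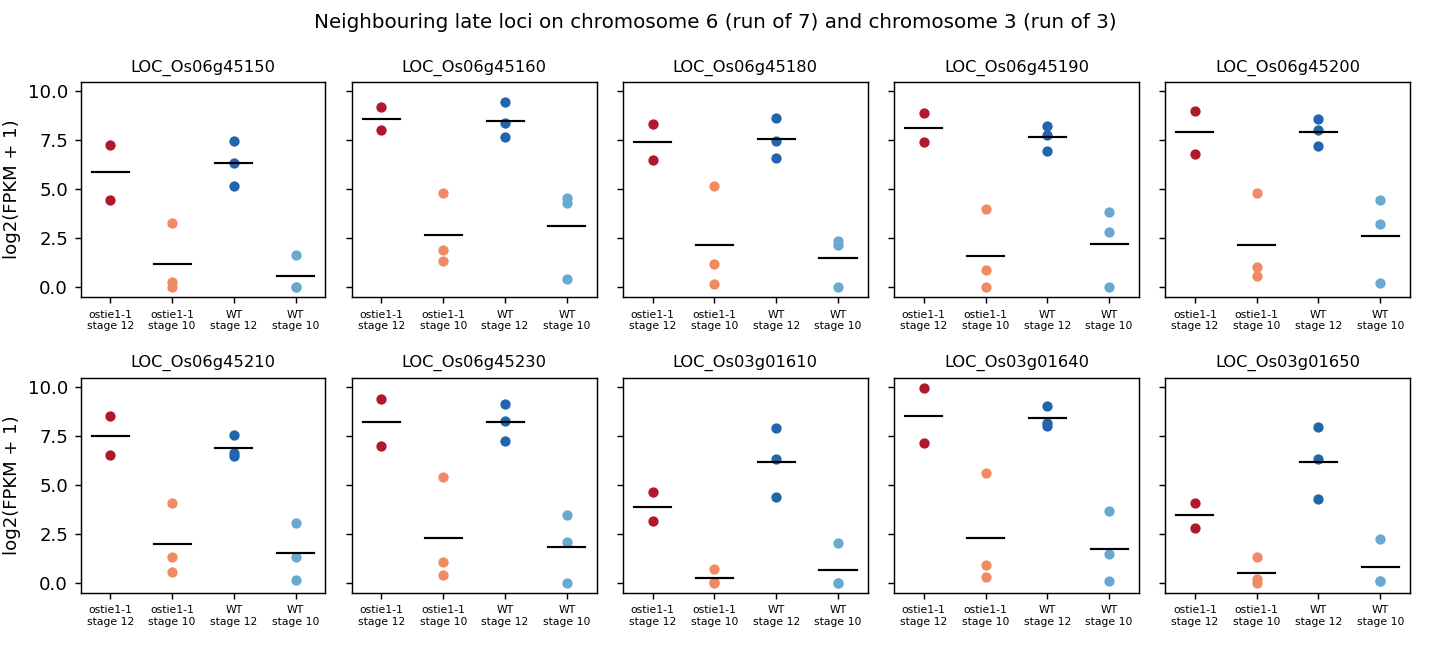
Levels of the run of 7 loci on chromosome 6 and the run of 3 on chromosome 3, as log2(FPKM + 1). Each point is 1 library and the bar is the group mean of the log2 values. The mean of each of the 10 loci is higher at stage 12 than at stage 10 in ostie1-1, and in WT, where the rule required it. LOC_Os03g01610 and LOC_Os03g01650 lie lower at stage 12 in ostie1-1 than in WT.

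The mirrored rule (lowest WT stage 10 value at least 4 times the highest WT stage 12 value, all WT stage 10 libraries at 5 FPKM or more) took 14 loci, against the 248 of the late set. In ostie1-1 the course of these was the opposite: 9 of 14 passed as lower at stage 12, beside 4.08% of all loci tested, and 0 as higher (median log2 fold change -3.25).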

How the data were processed

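The authors deposited 1 table of FPKM for rice transcript models with MSU identifiers. The submitters' processing notes name HISAT2 2.2.0, featureCounts and the genome build IRGSP-1.0. How counts became FPKM, which filters were used and how shared reads were treated is not given in the sources used here. FPKM of 66338 models were summed per locus, and the set was chosen on these unscaled sums. The fit used log2(FPKM + 1) after scaling libraries by median-of-ratios factors, which lay between 0.734 and 1.33. Limma 3.58.1 (R 4.3.3, trended variance) was fitted to the 5 ostie1-1 libraries alone, because the rule had constrained the WT spread, and was tested on simulated data. All other comparisons are counts without a test. The set, the tests and the rule for named loci (up to 2 per extreme of each comparison, the 2 most abundant and the 2 on each side of the threshold) were chosen with earlier results of these data known. Other named loci are marked.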

Additional observations from a re-analysis of the deposited data

How the results depend on the processing

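The median log2 fold change of the set in ostie1-1 kept its sign under every alternative run, from 3.11 (pseudocount 5) to 4.94 (pseudocount 0.1), and no locus of the set was called lower in any of them. The count of loci called higher lay between 153 and 232 with other scalings, other pseudocounts, a filter on the ostie1-1 libraries, fits with all 11 libraries or all but WT stage 10 replicate 3, and the replicate block. The WT values that chose the set enter the variance of the fits with WT libraries. Without a filter on low values the count was 31. Leaving out 1 ostie1-1 library gave 0 to 217, and leaving 1 WT library out of the rule gave 183 to 279 (276 of 364 without WT stage 12 replicate 2, 279 of 350 without WT stage 10 replicate 1). With the rule at a fold of 2 or 8 it was 311 of 395 or 88 of 129, and at a level of 1 or 20 FPKM 276 of 384 or 110 of 142. The rule took 249 to 364 loci without 1 WT library and 206 on scaled FPKM (204 shared). Within ostie1-1, 144 to 240 loci passed the rule with 1 library left out and 69 with a fold of 8. The count already high at stage 10 was 1 on scaled FPKM, 9 with a fold of 2 and 0 to 25 with 1 library left out. The count low at stage 12 was 2 with a fold of 2 and 0 to 7 with 1 library left out. These last 2 counts have no level minimum, so none was varied. At LOC_Os08g38250 the value was -0.39 (adjusted p = 0.872) without ostie1-1 stage 12 replicate 1 and at most 4.11 with another library left out. Of 18 named loci that passed, 18 were lost without that library, 8 without ostie1-1 stage 12 replicate 2, 11 without ostie1-1 stage 10 replicate 2, 4 without ostie1-1 stage 10 replicate 1, 1 without ostie1-1 stage 10 replicate 3, 13 without the filter, 2 with the replicate block, 2 with a pseudocount of 0.1 and 1 each with a pseudocount of 5, TPM, quantile normalization and all 11 libraries. The counts apart from WT without 1 library were added after seeing the data. The causes were not tested.

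With the replicate number as a block, 219 loci of the set were called higher and 797 of all loci. The groups share only 2 numbers. Ostie1-1 stage 10 replicate 3 is alone in its block and carries no weight in the fold change. The median log2 fold change of the set was 4.73 with the block and also without that library, so the block is no separate check. Deviations of the same-numbered ostie1-1 libraries correlated at -0.47 and -0.19. The deviations of the 2 stage 12 libraries mirror each other, so these values are not independent and cannot show whether numbers mark pairs. The labels are treated as numbers only.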

Other observations

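The rule applied to ostie1-1 also took 379 loci that are not in the WT set. Their mean levels had a median of 22.9 FPKM in ostie1-1 stage 12, against 1.70 FPKM in ostie1-1 stage 10, and of 8.16 FPKM in WT stage 12, against 1.34 FPKM in WT stage 10. In WT, 205 of them had a stage 12 library under 5 FPKM and 174 reached that level but not the fold. At 308 of the 379 the lowest WT stage 12 value was above the highest WT stage 10 value, and at 9 the WT mean was lower at stage 12. At 255 both ostie1-1 stage 12 libraries were above all WT stage 12 libraries, against 17.0% of all loci tested. Their ostie1-1 values chose them, so none of this was tested.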
